A study of Homo sapiens with 17 samples.

Results

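The transcripts of 9 metalloproteinases of the ADAM and ADAMTS families were followed in IMR-90 cells before and after the induction of senescence. The members were taken by gene symbol from the deposited count tables: the membrane-anchored ADAM9, ADAM10, ADAM12, ADAM17 and ADAM19, and the secreted ADAMTS1, ADAMTS2, ADAMTS5 and ADAMTS12. All 9 were found among 41040 named genes, and all 9 were among the 16891 genes with enough counts to be tested. IMR-90 is a human lung fibroblast line, and every library came from it. Week 0 cells were untreated (n = 5 libraries). The other cells received 20 µM etoposide, a topoisomerase II poison that breaks DNA, for 48 h, were kept without the drug, and were collected at week 1 (n = 6) or week 4 (n = 6). Untreated cells were collected at week 0 only, so treatment and time in culture cannot be told apart in any comparison with week 0. The labels do not say that replicates were separate cultures, so each p-value rests on differences among these libraries that may be technical.

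ADAM proteins are transmembrane proteases that cut the outer part of other membrane proteins off the cell, a step called ectodomain shedding, which releases growth factors, cytokines and adhesion molecules. ADAMTS proteins carry thrombospondin repeats in place of the membrane anchor, are secreted, and process matrix proteins such as procollagens and the large chondroitin sulfate proteoglycans. Both families are made as inactive precursors, and several members are held in check by TIMP3, a tissue inhibitor of metalloproteinases bound to the matrix.

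Each library held 77.2 M to 102.8 M counts on named genes, and no member had fewer than 596 counts in any library. Levels of single genes are in CPM, the counts-per-million unit, on library sizes scaled with TMM factors, as mean ± SD over libraries. Senescence markers followed the labels: the proliferation gene MKI67 was at 410.4 ± 58.4 CPM at week 0 against 42.7 ± 4.62 at week 1 and 66.5 ± 10.1 at week 4, and the cell cycle inhibitor CDKN1A was at 284 ± 14.2, 2141 ± 53.7 and 1276 ± 43.3 CPM. Fibroblast markers were abundant in every group. Over 12 markers, their sum, in CPM on library totals, ranged from 38247 to 44970 at week 0, from 50952 to 53090 at week 1 and from 64391 to 67301 at week 4. Of these 12, 7 were called higher and 4 lower at week 1, and 9 higher and 1 lower at week 4. A large part of the sum is COL1A1, which averaged 16897, 20357 and 28475 CPM on TMM-scaled sizes at weeks 0, 1 and 4. The sums over 6 leukocyte markers were 0.264 to 0.510, 0.541 to 0.744 and 0.249 to 0.844 CPM at weeks 0, 1 and 4, and of the 2 tested, 1 was called higher at week 1 and 2 at week 4. The pan-leukocyte gene PTPRC was at 0.0139, 0.237 and 0.0751 CPM on average, and the T cell gene CD3E was at or under 0.0501 CPM in every library. The sums over 6 endothelial markers were 83.9 to 103, 58.3 to 62.2 and 52.1 to 76.6 CPM, and of the 4 tested, 2 were called higher and 2 lower at each time. Most of this sum was TEK, which averaged 83.6, 59.6 and 69.0 CPM on TMM-scaled sizes, while PECAM1 averaged 0.00204, 0.581 and 0.141 CPM. The sums over 6 smooth muscle and pericyte markers were 439 to 515, 578 to 599 and 553 to 572 CPM, with 4 of 6 called higher at each time and 1 lower at week 1. The sums over 8 epithelial markers were 65.0 to 71.5, 235 to 275 and 193 to 213 CPM at weeks 0, 1 and 4, with the defining gene EPCAM at or under 0.451 CPM in every library, and 4 of the 5 tested were called higher in each treated group. Most of this sum was KRT18, which averaged 45.7, 192 and 154 CPM on TMM-scaled sizes. The part of these marker shifts in the results was not tested. In bulk RNA, fewer cells of a type and less RNA per cell cannot be told apart.

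Week 0 replicates 1 and 4 stood apart from the other untreated libraries. Ribosomal protein genes took 6.34% and 5.59% of their counts, against 3.45% to 4.16% in the other 3 untreated libraries. They were also the lowest pair of the 5 untreated libraries for 8 of the 9 proteases, all but ADAM17, as they were for 28.8% of all tested genes. Their mean level was 0.751 (ADAM12) to 0.862 (ADAM9) of that of the other untreated libraries for those 8 genes, and 1.00 for ADAM17. The pair therefore lowered the untreated mean of those 8 genes. Values without these libraries are given below for some members and comparisons only. All other changes from week 0 rest on all 5 untreated libraries.

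Etoposide-treated cells held more transcript of all 5 ADAM members at both time points, while the ADAMTS members went different ways. ADAMTS12 and ADAM12 rose most, to 6.13-fold at week 1 and 4.81-fold at week 4 respectively. ADAMTS5 and ADAMTS1 fell, by 1.74 and 0.58 on the log2 scale at week 1. ADAMTS2 was 1.11-fold lower at week 1 and stood 1.69-fold above week 0 at week 4. A gene was called where its Benjamini-Hochberg adjusted p, over all 16891 genes in edgeR's quasi-likelihood test, was under 0.05. At this threshold 6 members rose and 3 fell at week 1, so all 9 were called, where 66.9% of all tested genes were called, 32.9% as higher and 34% as lower. At week 4 against week 0, 7 rose and 2 fell, again 9 of 9, where 67.6% of all genes were called, 33.9% as higher and 33.7% as lower. The median log2 fold change of the members was 0.33 at week 1 and 0.41 at week 4, against -0.02 and 0.00 for all tested genes. Libraries of the 2 groups did not overlap for 7 of 9 members at week 1 and for 9 of 9 at week 4, where this held for 48.7% and 49% of all tested genes. Changes of 2-fold or more were called for 3 members in each of these comparisons, namely ADAM12, ADAMTS5 and ADAMTS12, where 20.7% of all genes changed that much at week 1 and 19.7% at week 4.

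**Figure D1:**
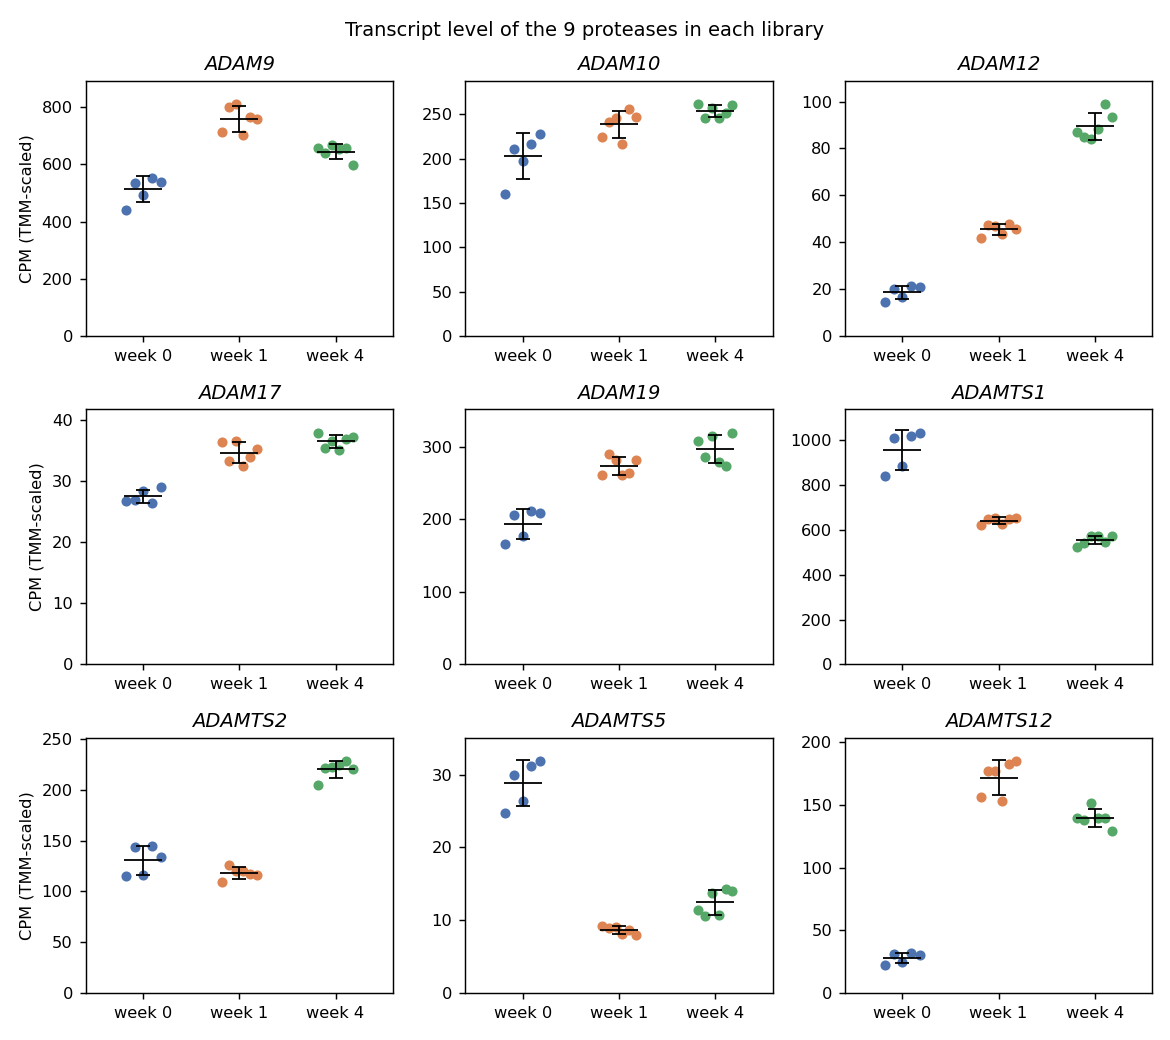
Level of each protease transcript in every library, in CPM on TMM-scaled library sizes (y axes start at 0), for week 0 (blue, n = 5), week 1 (orange, n = 6) and week 4 (green, n = 6). Points are libraries, black bars are the mean ± SD. ADAMTS12 goes from 28.1 to 172 CPM between weeks 0 and 1, and ADAMTS5 from 28.8 to 8.65 CPM.

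ADAM10 is the sheddase of Notch receptors, N-cadherin and the amyloid precursor protein. Its untreated libraries were at 160.2, 211, 197, 217 and 227 CPM (replicates 1, 3, 4, 5 and 6). At week 1 the lowest, median and highest libraries were at 216, 244 and 256 CPM, and at week 4 at 245, 254 and 261 CPM. The lower week 1 libraries lay among the higher untreated ones, while every week 4 library lay above all untreated libraries. The gain was small at both times, 1.18-fold at week 1 (log2 fold change 0.24 ± 0.07 SE, adjusted p = 0.0037 by edgeR) and 1.25-fold at week 4 (0.32 ± 0.07, adjusted p = 2e-04). Without week 0 replicates 1 and 4 the log2 fold changes were 0.12 (adjusted p = 0.021) and 0.21 (adjusted p = 0.00028). On library totals alone, without a scaling factor, they were 0.07 (adjusted p = 0.33) and 0.13 (adjusted p = 0.079), so both calls depend on the scaling.

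ADAM17, also known as TACE, releases TNF, the TNF receptors and ligands of the EGF receptor. It stood at 26.8, 26.9, 28.4, 26.5 and 29.0 CPM in the untreated libraries in the same order. Week 1 libraries ran from 32.5 through a median of 34.6 to 36.6 CPM, and week 4 libraries from 35.2 through 36.8 to 37.96 CPM. Both treated groups lay wholly above the untreated libraries, which spread less for this gene than for any other member (SD 4.05% of the mean). The rise was 1.26-fold at week 1 (log2 fold change 0.33 ± 0.05, adjusted p = 1.3e-06 by edgeR) and 1.33-fold at week 4 (0.41 ± 0.05, adjusted p = 6.8e-08). On library totals alone the log2 fold changes were 0.17 (adjusted p = 0.0031) and 0.22 (adjusted p = 0.00038).

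ADAM9 is a widely expressed ADAM with shedding activity. Untreated libraries were at 442, 536, 494, 554 and 540 CPM (replicates 1, 3, 4, 5 and 6). Week 1 libraries ran from 704 through 762 to 810.4 CPM, and week 4 libraries from 596 through 654 to 668 CPM. The 3 groups did not overlap, with week 1 highest. ADAM9 rose 1.48-fold at week 1 (log2 fold change 0.56 ± 0.06, adjusted p = 9.2e-09 by edgeR) and fell by 0.23 ± 0.05 on the log2 scale from week 1 to week 4 (adjusted p = 0.0012). It stayed above week 0 at week 4, by 1.26-fold (0.33 ± 0.06, adjusted p = 2.2e-05). On library totals alone this last value was 0.14 (adjusted p = 0.026).

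ADAM19, or meltrin beta, takes part in neuregulin processing. It was at 166, 206, 177, 211 and 209 CPM in the untreated libraries, between 261 and 290.1 CPM with a median of 273 at week 1, and between 274 and 319 CPM with a median of 297 at week 4. Treated libraries lay above all untreated ones, and the 2 treated groups overlapped. The rise over week 0 was 1.41-fold at week 1 (log2 fold change 0.50 ± 0.06, adjusted p = 3.2e-07 by edgeR) and 1.53-fold at week 4 (0.61 ± 0.06, adjusted p = 1.3e-08).

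ADAM12, or meltrin alpha, is a protease of mesenchymal cells that cuts IGF-binding proteins. Before treatment it was at 14.4, 19.8, 16.6, 21.2 and 20.8 CPM (replicates 1, 3, 4, 5 and 6). Week 1 libraries held 41.8 to 47.9 CPM with a median of 46.1, and week 4 libraries 84.2 to 98.9 CPM with a median of 87.5. The 3 groups were fully separate and rose in steps. ADAM12 was 2.45-fold higher at week 1 (log2 fold change 1.29 ± 0.08, adjusted p = 2.8e-12 by edgeR) and 4.81-fold higher at week 4 (2.27 ± 0.08, adjusted p = 2.6e-16). It rose a further 1.97-fold from week 1 to week 4 (0.98 ± 0.07, adjusted p = 9.6e-10). Of all tested genes, 3.7% had a larger log2 fold change at week 4 against week 0, and 3.55% at week 4 against week 1.

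ADAMTS12, a secreted protease that cuts cartilage oligomeric matrix protein, had the largest change of the 9. Untreated libraries held 22.6, 31.0, 24.95, 31.6 and 30.1 CPM. Week 1 libraries held 153 to 185 CPM with a median of 177, and week 4 libraries 129 to 152 CPM with a median of 139.5. Every treated library lay far above every untreated one. The transcript rose 6.13-fold at week 1 (log2 fold change 2.62 ± 0.08, adjusted p = 1.4e-17 by edgeR), and 2.47% of all tested genes rose more. It receded by 0.30 ± 0.07 on the log2 scale between weeks 1 and 4 (adjusted p = 0.0017) and was then 4.98-fold above week 0 (2.32 ± 0.08, adjusted p = 1.1e-16).

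The promoters of the 2 members that rose most are shown, as the 250 bases before the RefSeq gene start (GRCh38.p14, minus strand, 5′ to 3′), at chr10:126388478-126388727 for ADAM12 and chr5:33891991-33892240 for ADAMTS12. Capitals mark matches, on either strand, to the 6 short motifs searched.
ADAM12: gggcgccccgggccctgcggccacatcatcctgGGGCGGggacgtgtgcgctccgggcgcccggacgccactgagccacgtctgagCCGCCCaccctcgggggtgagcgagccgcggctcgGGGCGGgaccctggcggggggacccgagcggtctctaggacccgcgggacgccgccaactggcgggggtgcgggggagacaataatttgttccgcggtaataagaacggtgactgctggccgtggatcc
ADAMTS12: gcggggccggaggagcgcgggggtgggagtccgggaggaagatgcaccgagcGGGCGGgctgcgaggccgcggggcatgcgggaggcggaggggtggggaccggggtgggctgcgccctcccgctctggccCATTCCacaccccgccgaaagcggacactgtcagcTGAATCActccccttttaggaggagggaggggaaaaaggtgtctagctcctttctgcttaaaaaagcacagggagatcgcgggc
The motifs were the AP-1 pattern TGANTCA, the TEAD site GGAATG, the GC box GGGCGG, the CCAAT box CCAAT, the TATA box TATAAA and the E-box CACGTG. N stood for any base, so an AP-1 match, here and in the shares below, need not be a consensus AP-1 site. The ADAMTS12 window held an AP-1 match, TGAATCA, whose first base lies at -84 from the start, a TEAD match at -119 and a GC box at -198. The ADAM12 window held 3 GC boxes and no match to the other 5 motifs. Among 35116 windows of the same length, 6.57% held an AP-1 match, 11.9% a TEAD match and 42.6% a GC box. Windows of 6 members were used, and none for the other 3 (ADAM9, ADAMTS1 and ADAMTS5). Of the 6, 5 held a GC box, 2 a TEAD match, 1 an AP-1 match and 1 an E-box. These windows are 68.4% to 80% G and C, against a median of 58% over all windows. A match describes letters, and neither factor binding nor the start used in these cells was measured.

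ADAMTS1 cuts versican and aggrecan. It was the most abundant member per kilobase of listed length in every group, though not by CPM alone at weeks 1 and 4. Untreated libraries were at 840.1, 1008, 882, 1017 and 1032 CPM (replicates 1, 3, 4, 5 and 6). Week 1 libraries ran from 620.2 through 648 to 653 CPM, and week 4 libraries from 525 through 558 to 572 CPM. The groups did not overlap and fell in steps. The log2 fold change was -0.58 ± 0.05 at week 1 (adjusted p = 1.2e-09 by edgeR), -0.79 ± 0.05 at week 4 (adjusted p = 7.1e-12) and -0.21 ± 0.05 between weeks 1 and 4 (adjusted p = 0.0016).

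ADAMTS5 is the main aggrecanase of cartilage. It went from 24.7, 30.0, 26.4, 31.2 and 31.9 CPM in the untreated libraries to 7.98 to 9.22 CPM with a median of 8.75 at week 1, and to 10.5 to 14.3 CPM with a median of 12.6 at week 4. Every week 1 library lay below every other library, and week 4 libraries lay between the other groups. ADAMTS5 was 3.33-fold lower at week 1 (log2 fold change -1.74 ± 0.09, adjusted p = 7.6e-14 by edgeR), and 3.71% of all tested genes fell more. It rose 1.44-fold from week 1 to week 4 (0.53 ± 0.09, adjusted p = 3.4e-05) and stayed 2.31-fold below week 0 (-1.21 ± 0.09, adjusted p = 4e-11).

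ADAMTS2 removes the amino-terminal propeptide of fibrillar procollagens. Untreated libraries held 115, 144, 117, 145 and 134 CPM, week 1 libraries 109.5 to 127 CPM with a median of 118, and week 4 libraries 205 to 228 CPM with a median of 222. The week 0 and week 1 libraries overlapped, and every week 4 library stood above both. The rise came between weeks 1 and 4, at 1.87-fold (log2 fold change 0.90 ± 0.06, adjusted p = 4.4e-11 by edgeR), and left ADAMTS2 1.69-fold above week 0 (0.75 ± 0.06, adjusted p = 1.7e-10). At week 1 it was called lower by 0.15 ± 0.06 (adjusted p = 0.031), a call that was lost in 12 of 30 other settings, among them RLE scaling (adjusted p = 0.059) and leaving out any of week 0 replicates 3, 5 and 6 or week 1 replicates 1, 5 and 6 (adjusted p = 0.052 to 0.11). Without week 0 replicates 1 and 4 the week 1 value was -0.26 (adjusted p = 1.4e-05).

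Between weeks 1 and 4 the members split. ADAM12, ADAMTS2 and ADAMTS5 rose, ADAM9, ADAMTS1 and ADAMTS12 fell, and the libraries of the groups did not overlap for these 6, where 30.2% of all tested genes had no overlap. The 6 of 9 called compare with 40.5% of all tested genes called, 21.8% as higher and 18.6% as lower. The median log2 fold change of the members was 0.09, against 0.01 for all genes. For the other 3 members, ADAM10, ADAM17 and ADAM19, the ratio of week 4 to week 1 had 95% intervals of 0.970 to 1.17, 0.989 to 1.12 and 0.997 to 1.18 (adjusted p = 0.29, 0.18 and 0.12 by edgeR), so further rises up to those bounds cannot be told from no change. ADAM19 was called higher when week 0 replicates 1 and 4 were left out (log2 fold change 0.12, adjusted p = 0.016), when only the groups compared were fitted (adjusted p = 0.043) and with a term for file class (adjusted p = 0.046).

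**Figure D2:**
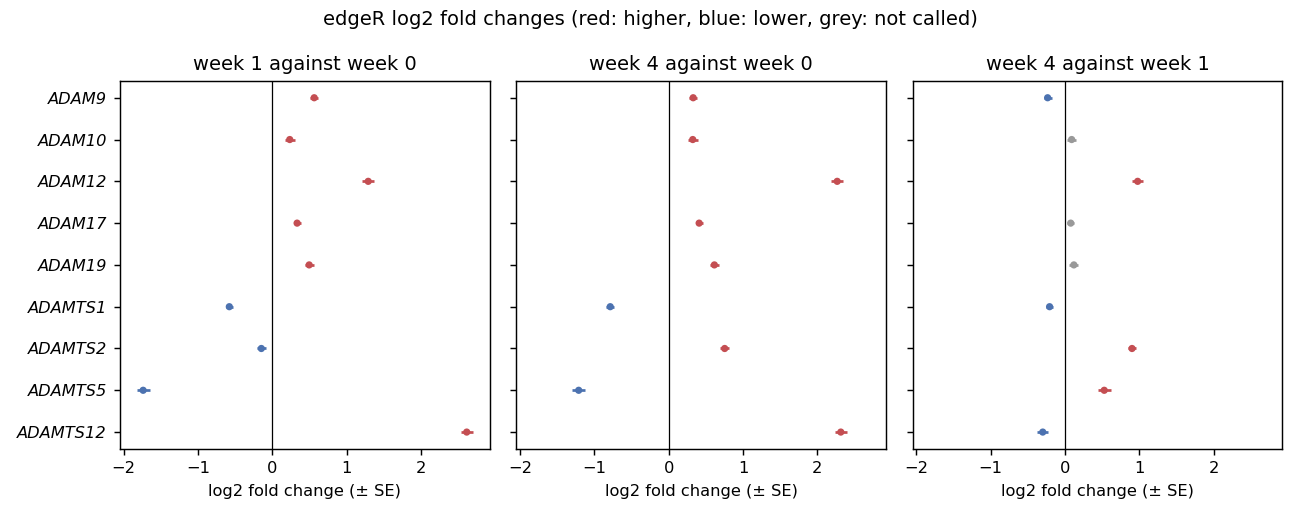
edgeR log2 fold change (x axis, ± SE) of each protease in the 3 comparisons, red where called higher, blue where called lower and grey where not called at an adjusted p under 0.05. The ADAM members lie to the right of 0 in both comparisons with week 0, from 0.24 to 2.27, and the ADAMTS members on both sides, from -1.74 to 2.62.

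Levels of different genes were compared per kilobase of the gene length that some of the deposited tables hold. The lengths of the transcripts made in these cells were not measured. The order, shares and ratios of different genes therefore depend on the listed lengths. ADAMTS1 led in all groups, at 131 ± 12.1, 87.7 ± 1.99 and 75.9 ± 2.67 CPM per kilobase at weeks 0, 1 and 4, where 1.23%, 2.15% and 2.33% of tested genes stood above it. At week 0 it was followed by ADAM9 (29.0 ± 2.58) and ADAM19 (25.2 ± 2.66), whose library ranges overlapped, then by ADAMTS2 (14.6 ± 1.60) and ADAM10 (12.7 ± 1.63), which also overlapped. ADAMTS5 (2.95 ± 0.320) and ADAMTS12 (2.92 ± 0.421) were level, and ADAM12 (1.88 ± 0.299) and ADAM17 (1.72 ± 0.0697) came last and overlapped. By week 1 ADAMTS12 had moved to the fourth place, at 17.9 ± 1.43 CPM per kilobase, overlapping with ADAM10 (14.9 ± 0.942), while ADAMTS5 was last at 0.886 ± 0.0515. At week 4 ADAM19 (38.5 ± 2.54) and ADAM9 (36.4 ± 1.44) overlapped in the places after it, ADAM12 reached 9.04 ± 0.570, and ADAM17 (2.29 ± 0.0670) and ADAMTS5 (1.28 ± 0.180) were lowest and separate. Ranked by CPM without length, ADAM9 stood above ADAMTS1 at weeks 1 and 4, because its listed length is 17.7 kb against 7.30 kb.

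On the TMM scale and with the listed lengths, the summed level of the 9 transcripts was similar in the 3 groups. It was 222 ± 21.3, 219.7 ± 8.33 and 218 ± 4.29 CPM per kilobase at weeks 0, 1 and 4, while its composition differed. TMM factors were 1.08 to 1.11 at week 0 and 0.938 to 0.990 in the treated libraries, so this similarity depends on the scaling. ADAMTS1 made up 59.0 ± 0.504% of the sum at week 0, 39.9 ± 0.706% at week 1 and 34.7 ± 0.820% at week 4. Both ADAM9 and ADAM19 went the other way. ADAM9 held 13.1 ± 0.302%, 19.5 ± 0.484% and 16.7 ± 0.722%, and ADAM19 11.3 ± 0.134%, 16.2 ± 0.403% and 17.6 ± 1.02%. ADAMTS12 went from 1.31 ± 0.0711% to 8.14 ± 0.394% and 6.66 ± 0.304%. ADAM12 went from 0.843 ± 0.0579% to 2.09 ± 0.0532% and 4.14 ± 0.279%, and ADAMTS2 from 6.58 ± 0.275% to 6.00 ± 0.245% and 11.3 ± 0.413%. Shares within a library do not depend on the scaling factor, and ADAMTS1 held 58.5% to 59.8% in all 5 untreated libraries, the pair that was low in CPM included.

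**Figure D3:**
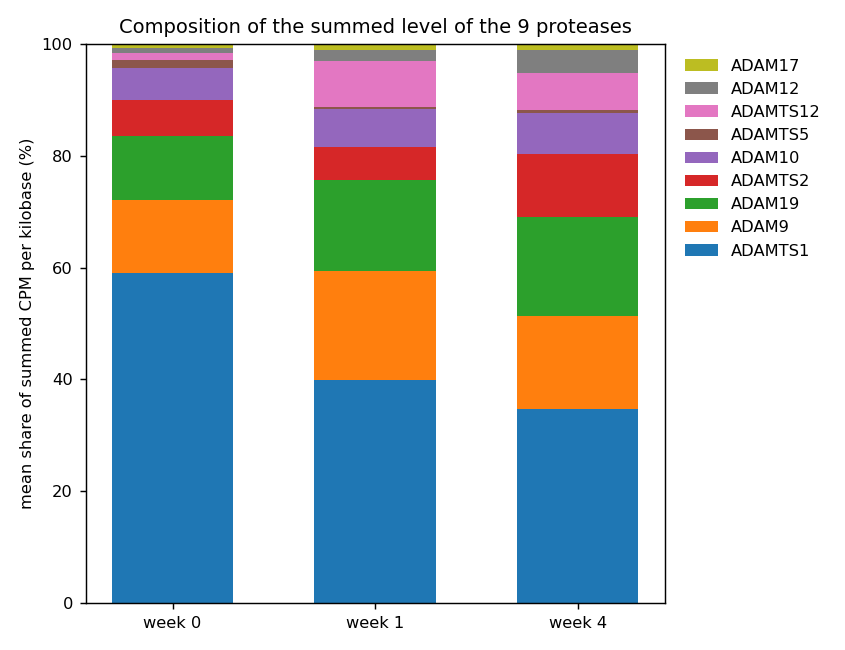
Mean share of each protease in the summed CPM per kilobase of the 9 transcripts (y axis, percent, stacked to 100) at weeks 0, 1 and 4. The ADAMTS1 segment shrinks from 59.0% to 34.7% and the ADAM12, ADAMTS12 and ADAMTS2 segments are larger at week 4 than at week 0.

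Ratios of related members within a library show the same data without scaling. ADAM10 stood at 7.35 ± 0.893, 6.88 ± 0.481 and 6.93 ± 0.0792 times ADAM17 per kilobase at weeks 0, 1 and 4, ranges that overlapped in all groups. The ratio of the meltrins, ADAM19 to ADAM12, dropped from 13.5 ± 0.834 to 7.73 ± 0.346 and 4.28 ± 0.432, with no overlap between groups. ADAMTS1, per kilobase, was 44.4 ± 0.911 times ADAMTS5 at week 0, 99.3 ± 6.61 times at week 1 and 60.4 ± 8.29 times at week 4, again with no overlap.

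The genes whose log2 CPM followed each member most closely over the 17 libraries, among 10118 genes with a mean of at least 5 CPM, are given as a description. The points share libraries and the 3 group means, so high values of Pearson's r are common. ADAMTS12 was closest to the collagen cross-linking enzyme LOX, the death receptor TNFRSF10B and NRXN3 (r = 0.998 for each). ADAM12 was closest to TENM4 (r = 0.997), ERMP1 and the matrix protein FBLN2 (r = 0.995 for both). ADAMTS2 was closest to TGFBI (r = 0.988), the collagen chain COL6A3 (r = 0.986) and the growth factor receptor PDGFRB (r = 0.985). ADAMTS5 was closest to C18orf54 (r = 0.991), POGLUT3 (r = 0.989) and the deubiquitinase USP1 (r = 0.988), and ADAMTS1 to PABIR2, ELAVL1 and NUP50 (r = 0.982 to 0.983). ADAM9 was closest to EIF2AK4 (r = 0.99), PALM2AKAP2 (r = 0.988) and AP2B1 (r = 0.982). ADAM10 was closest to TNKS2 (r = 0.98), ZYG11B (r = 0.978) and TGOLN2 (r = 0.973), and ADAM19 to ALDH1L2 (r = 0.981), ATRN (r = 0.98) and PLXNA1 (r = 0.979). ADAM17 was closest to C1GALT1 (r = 0.969), GPR137B and TCAF2 (r = 0.968 for both). Among pairs of members the highest r was that of ADAM12 and ADAM19 (0.924) and the lowest that of ADAMTS5 and ADAMTS12 (-0.946).

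Of the other 31 ADAM and ADAMTS genes listed, 21 could be tested. At week 1, 8 rose and 4 fell, with a median log2 fold change of 0.43, and at week 4, 13 rose and 2 fell, with a median of 0.63. Over all tested genes, 32.9% were called higher and 34% lower at week 1, and 33.9% and 33.7% at week 4, with medians of -0.02 and 0.00, so 8 of 21 higher at week 1 is near the share of all genes. The counts of the lists that follow stand against these same shares. ADAM15, another membrane ADAM with an active site, went from 57.7 ± 6.64 to 108 ± 5.35 and 88.6 ± 4.10 CPM (adjusted p = 1.5e-11 and 9.8e-09 against week 0 by edgeR). ADAM23, which lacks an active site and binds integrins, rose 2.42-fold and 2.20-fold. At low levels, ADAM28 was at 0.133 ± 0.0624 CPM at week 0 and 0.341 ± 0.160 at week 4 (adjusted p = 0.0036), and ADAM11 at 0.427 ± 0.204 and 0.749 ± 0.160 CPM (adjusted p = 0.0095). ADAMTS8 rose from 17.8 ± 1.73 to 57.8 ± 3.47 and 86.4 ± 11.0 CPM, and ADAMTS15 went from 22.0 ± 2.37 to 50.9 ± 3.29 CPM at week 4 (adjusted p = 2.9e-12). ADAMTS3, the relative of ADAMTS2 that also processes procollagen, fell from 3.73 ± 0.501 to 1.88 ± 0.288 and 2.30 ± 0.180 CPM, opposite to ADAMTS2 at week 4. ADAMTS7, which like ADAMTS12 cuts cartilage oligomeric matrix protein, was at 42.1 ± 4.15, 33.6 ± 1.49 and 36.0 ± 3.47 CPM and called lower at both times (adjusted p = 0.00025 and 0.0062). Of 7 ADAMTS-like genes and papilin, which have the ancillary domains and no protease, 5 rose at both times, with ADAMTSL1 at 12.0 ± 1.15, 58.7 ± 3.32 and 49.3 ± 7.20 CPM and ADAMTSL4 at 15.4 ± 1.42, 58.6 ± 2.72 and 75.0 ± 2.96 CPM.

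Of 9 partners that mature or carry ADAM10 and ADAM17, 6 rose at week 1, where 32.9% of all tested genes rose, and 5 rose and 1 fell at week 4, where 33.9% rose and 33.7% fell. RHBDF2, which encodes the iRhom2 carrier of ADAM17, went from 5.71 ± 0.662 to 26.4 ± 1.09 and 29.8 ± 3.05 CPM, rises of 4.62-fold and 5.21-fold (adjusted p = 2e-16 and 7.1e-17 by edgeR). Its relative RHBDF1 rose 1.47-fold and 1.24-fold. FRMD8, which stabilises the complex of iRhom and ADAM17, was at 42.8 ± 3.49, 40.7 ± 2.27 and 40.6 ± 2.61 CPM (adjusted p = 0.28 and 0.25). Among the tetraspanins that guide ADAM10, TSPAN5 rose 1.78-fold and 1.72-fold, and TSPAN17 was 1.25-fold higher at week 1 and 1.09-fold lower at week 4. Of 4 proprotein convertases, 3 rose at week 1 and 4 at week 4. PCSK6 was near the floor, with 6 to 18 counts at week 0 and 14 to 39 at week 4. Its libraries and those of PCSK7 overlapped between weeks 0 and 4. FURIN, the convertase that removes the propeptide, rose 1.16-fold and 1.19-fold, and its relative PCSK5 went from 8.84 ± 0.857 to 15.5 ± 0.791 and 22.1 ± 2.56 CPM. Without TMM factors the median log2 fold change of all tested genes was -0.18 at week 1 and -0.19 at week 4. Changes as small as that of FURIN (0.21 and 0.24) may therefore depend on the scaling. POFUT2, which adds fucose to thrombospondin repeats, rose 1.70-fold and 1.41-fold, while B3GLCT, which extends that sugar, was 2.47-fold and 2.24-fold lower.

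Of 7 inhibitors and clearance receptors of the proteases, 5 rose at week 1 and 5 at week 4, where 32.9% and 33.9% of all tested genes rose. TIMP1 rose 2.71-fold and 2.31-fold (1379 ± 57.1, 3731 ± 185 and 3181 ± 292 CPM, adjusted p = 1.8e-15 and 4.3e-14 by edgeR). TIMP2 was called higher at week 1 and not at week 4 (814 ± 81.4, 1131 ± 27.0 and 888 ± 48.9 CPM, adjusted p = 1.7e-07 and 0.057 by edgeR). TIMP4 was called at neither time (0.582 ± 0.147, 0.594 ± 0.211 and 0.436 ± 0.0843 CPM, adjusted p = 0.93 and 0.15). TIMP3, which inhibits ADAM17 and the aggrecanases, went from 551 ± 49.0 to 2506 ± 64.8 and 2080.3 ± 262 CPM, and the ratio of TIMP3 to ADAMTS5 per kilobase from 40.7 ± 1.06 to 617 ± 41.8 and 357 ± 31.0. The ratio of TIMP3 to ADAM17 went from 69.7 ± 6.87 to 251 ± 13.2 and 197 ± 22.3. LRP1, the receptor that takes up ADAMTS5 and TIMP3, rose 2.98-fold and 3.89-fold. RECK, a membrane-anchored inhibitor, rose 1.30-fold and 1.21-fold, and A2M, a broad protease inhibitor, stood at 21.1 ± 2.19, 20.7 ± 0.598 and 41.6 ± 4.97 CPM (adjusted p = 0.78 and 2.1e-10).

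**Figure D4:**
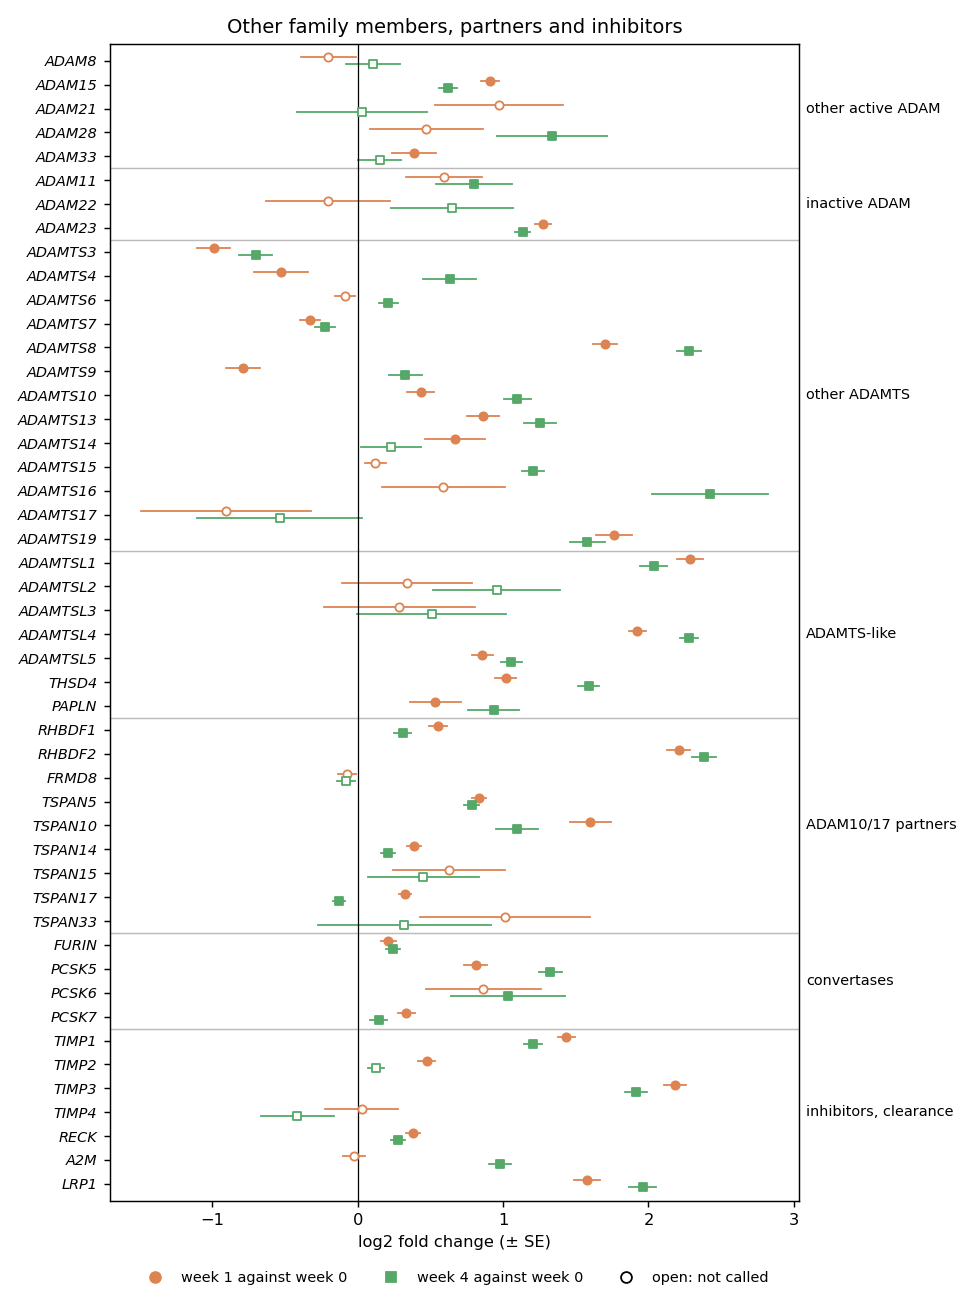
edgeR log2 fold change (x axis, ± SE) of the tested genes of the other family members, partners, convertases and inhibitors, for week 1 (orange circles) and week 4 (green squares) against week 0, with open symbols where not called. RHBDF2 and TIMP3 lie near 2 at both times, and ADAMTS9 and ADAMTS4 lie left of 0 at week 1 and right of it at week 4.

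Substrates were counted from the same kind of list. Of 22 tested membrane proteins that ADAM proteases shed, 15 rose and 4 fell at week 1, and 16 rose and 3 fell at week 4, with median log2 fold changes of 0.80 and 0.65, against 32.9% higher and 34% lower at week 1, 33.9% and 33.7% at week 4, and medians of -0.02 and 0.00 over all tested genes. The adhesion molecules L1CAM and VCAM1 had the smallest adjusted p of the genes that rose at week 4, and reached 47.97 ± 3.64 and 228 ± 29.3 CPM, from 0.802 ± 0.268 and 45.4 ± 5.12 CPM at week 0. The EGF-family ligand EREG fell from 6.66 ± 0.665 to 0.897 ± 0.390 CPM and the interleukin 6 receptor IL6R from 10.9 ± 0.749 to 5.75 ± 0.667 CPM (adjusted p = 3e-11 and 1.4e-09 by edgeR). AREG, another EGF-family ligand, went from 21.8 ± 3.31 to 0.809 ± 0.266 at week 1 and 4.95 ± 2.83 CPM at week 4. TNF, a listed substrate of ADAM17, had 0 counts in every library and was not tested. Of 13 tested matrix substrates of ADAMTS proteases, 8 rose and 4 fell at week 1, and 12 rose at week 4, with medians of 0.40 and 1.41 beside the same shares and medians of all genes. The gene not called at week 4, DCN, averaged 1465 ± 296 CPM in untreated cells against 1296 ± 93.4 CPM by then (adjusted p = 0.082). COMP, the substrate of ADAMTS12, went from 0.144 ± 0.0129 to 2.88 ± 0.406 and 2.83 ± 0.352 CPM, and BGN, a small proteoglycan, from 366 ± 31.1 to 970.1 ± 33.8 CPM at week 4. The listed procollagen genes that ADAMTS2 acts on, COL1A1, COL1A2, COL2A1, COL3A1 and COL5A1, were all called higher at week 4. For example, COL3A1 was at 2833 ± 266, 2137 ± 92.8 and 4797 ± 512 CPM, and ADAMTS2 itself at 131 ± 14.4, 118 ± 5.58 and 221 ± 8.27 CPM. COL2A1 was near the floor, with 2 to 12 counts at week 0 and 2 to 36 at week 4 (0.0605 ± 0.0439 and 0.208 ± 0.154 CPM). BCAN, also among the 12 that rose, was at 0.0264 ± 0.0383 and 0.183 ± 0.0775 CPM. For both genes the week 0 and week 4 libraries overlapped. The aggrecan gene ACAN went from 1.15 ± 0.303 to 0.505 ± 0.175 and 8.70 ± 3.52 CPM (adjusted p = 0.0033 and 1.9e-08). Transcript levels do not show protease activity or shedding, which were not measured here.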

How the data were processed

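Bulk RNA-seq of 17 libraries was used. RNA came off spin columns after DNase treatment, per the labels' protocols. The authors deposited a table per library with raw counts per gene symbol, not normalized. Gene lengths come from the 4 deposited tables that hold them. HISAT2 2.0.5.2 and featureCounts 1.4.6 are named, per the submitters' processing notes, which also give mm10, a mouse build, although the symbols are human. The build behind the counts is therefore unclear, and the only coordinates printed are those of the RefSeq promoters. Whether counting used strand is not given in the sources used here. Reads of overlapping genes therefore cannot be assigned.

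An unnamed entry (0.221% to 0.289% of counts) was left out. edgeR 4.0.16 in R 4.3.3 was run with filterByExpr, TMM factors (0.938 to 1.11), 1 mean per group and all libraries in a shared fit. The SE of a log2 fold change is its size over the square root of F. On library totals without TMM factors, all tested genes had a median log2 fold change of -0.18 at week 1 and -0.19 at week 4 against week 0, and of -0.02 between weeks 1 and 4. Changes are reported on the TMM scale. Counts of library pairs within a group differed beyond sampling noise in all 40 pairs (chi-square per gene of 7.38 or more). Simulated counts for 16891 genes held 100 genes changed by 1 on the log2 scale and 100 changed by 0.5. Of those changed by 1, 84% (week 1 against week 0) and 82% (week 4 against week 0) were called, and 72% and 70% of those changed by 0.5. Far more genes were called in the data, so these shares do not give the power of the reported tests. Correlations use log2(CPM + 0.5). Alternatives were RLE and upper-quartile scaling, library totals, DESeq2 1.42.0, limma-voom (limma 3.58.1), other filters, a minimum fold change, only the groups compared, a replicate block, a term for file class or 1 class alone (4 tables with lengths against 13 without), and libraries left out. Members, lists and alternatives were chosen with earlier results of these data known. Named were all members, per fixed list up to 2 genes that rose and 2 that fell with the smallest adjusted p at week 4, and the 3 genes closest to each member. TIMP3, RECK, RHBDF2, FURIN and LRP1 were to be named whatever their result. Other list genes (ADAMTS4, ADAMTS9, RHBDF1, FRMD8, PCSK6, PCSK7, TIMP1, TIMP2, TIMP4, A2M, TNF, AREG, PTPRC, CD3E, EPCAM, KRT18, TEK, PECAM1, DCN, ACAN, BCAN and the collagens) were named after their values were seen.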

Additional observations from a re-analysis of the deposited data

Results flagged for a closer look

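Among 27 combinations of a protease and a group, 1 library stood far from the others of its group, where chance flags about 1 in 20 groups. ADAMTS2 in week 4 replicate 1 was at 205 CPM, against 221 to 228 CPM in the other 5 week 4 libraries. It still lay above every week 0 and week 1 library.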

How the results depend on the processing

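Each comparison was repeated in 30 other settings, 17 of which left out 1 library. No log2 fold change of a protease changed sign in any of them. Of 810 values of single proteases, 776 stayed on their side of the threshold, 31 lost a call and 3 gained one. Tested against a fold of 2 with edgeR's glmTreat, which asks for more than a difference from 0, 3 members were called at week 1 (2 higher, 1 lower) and 3 at week 4 (2 higher, 1 lower), namely ADAM12, ADAMTS5 and ADAMTS12. All genes called were then 2193 (1229 higher, 964 lower) at week 1 and 1991 (1270 higher, 721 lower) at week 4 against week 0. Between weeks 1 and 4, 0 members (0 higher, 0 lower) and 150 genes (132 higher, 18 lower) passed glmTreat, with 0 members at an unadjusted p under 0.05 and 6 called by edgeR's quasi-likelihood test. With 1 library left out, 8 to 9 members were called at week 1, 9 at week 4 and 6 between weeks 1 and 4. On library totals alone, 36.9% of calls were higher at week 1 and 35.5% at week 4 against week 0, compared with 49.2% and 50.1% as reported.

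The week 1 value of ADAMTS2 was also lost with upper-quartile scaling (log2 fold change -0.07, adjusted p = 0.26), DESeq2 (-0.13, adjusted p = 0.062), only the groups compared (-0.14, adjusted p = 0.074) and the 13 tables without lengths alone (-0.09, adjusted p = 0.26). The untreated libraries among those 13 tables were replicates 1, 3 and 4, so the low pair made up most of them. All week 4 libraries were among the 13. The cause of the lost calls was not tested. The labels do not say what same-numbered libraries share. Their deviations from the group means correlated at -0.02 to 0.14, -0.05 to 0.14 and -0.08 to 0.05 in the 3 comparisons. A library matched its own number best in 1 of 5, 2 of 5 and 0 of 6 pairs. These values cannot decide whether such libraries had a common origin. With the replicate number as a block, 9, 9 and 6 members were called, as without it, and 11096, 11180 and 6669 genes in all. Depth did not limit the members, which had 596 counts or more in every library.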
